A study of Mus musculus with 9 samples.

Results

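The choroid plexus is the epithelial tissue inside the brain ventricles that makes cerebrospinal fluid, and 32 genes of its epithelium were followed in RNA-seq of the mouse hippocampus. The 32 genes were chosen by name from the deposited table after the FPKM values of its 9 libraries were known, so what they show in these libraries is a description and is not tested as a finding. They were 32 of 18798 genes with values, out of 22173 genes listed. The 9 libraries came from C57BL/6 mice in 3 groups of 3: young controls aged 8 weeks, middle-aged controls aged 10 months, and middle-aged mice aged 10 months given quercetin, a plant flavonol. Both control groups received the solvent, PBS containing 10% DMSO. The study's methods describe the mice as female. Quercetin was injected into the tail vein in the same solvent, at 1 mg/kg every 2 days. The labels give 24 days of treatment, and 30 days are stated for the behaviour experiment. No source used here says whether a library came from 1 mouse or from several, so the spread within a group is the spread between these samples and may be technical.

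Choroid plexus epithelial cells carry ions, bicarbonate, water, folate and other solutes from blood to cerebrospinal fluid, and secrete proteins such as transthyretin into it. Tight junctions between the cells form the barrier between blood and cerebrospinal fluid. The tissue lies in the ventricle beside the hippocampus and is not part of the hippocampal formation. Hippocampal neurons do not make most of these proteins, although some of the genes, such as Enpp2 in oligodendrocytes and Kl in neurons, are also used by other brain cells.

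Of the 32 genes, 31 were higher in 2 libraries of different groups, young control 3 and middle-aged quercetin 2, than in any of the other 7. In both libraries, 23 of these genes were at least 2 times the highest of the other 7. Young control 3 held the highest value of all 32 genes, and middle-aged quercetin 2 the second highest of 31. Over the 32 genes the level in young control 3 had a median of 8.77 times the gene's median over the 9 libraries, with a range from 1.47 to 194 times. In middle-aged quercetin 2 it had a median of 4.00 times, with a range from 1.00 to 75.4 times. Levels are in FPKM, fragments normalised to transcript length and library size, so genes are compared per length. FPKM holds no read counts, and the absolute depth behind each value is unknown. In bulk tissue, fewer cells of a type and less RNA per cell cannot be told apart.

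DNA motifs of choroid plexus regulators and of the basal promoter were looked for in the sequences upstream of the members. Those of 4 members are shown, picked because they hold a match. Most of the members searched held none. OTX2, itself a member, binds the core TAATCC. Windows of 250 bases before the most upstream start in a RefSeq promoter table (GRCm38.p6) were used, where 24 of the 32 members had one. Of these, 16 end directly before the annotated gene, the 4 shown among them, and 8 reach into it or lie inside it. The lines give Ace (chr11:105967698-105967947, plus strand), Mfrp (chr9:44101520-44101769, plus strand), Cldn2 (chrX:139800558-139800807, plus strand) and Kcnj13 (chr1:87394730-87394979, minus strand), written 5′ to 3′ along the gene. Capitals mark TAATCC or its reverse complement GGATTA, and TATAAA or its reverse complement TTTATA; in Ace TTTATA and TAATCC overlap into 1 run of capitals.
Ace: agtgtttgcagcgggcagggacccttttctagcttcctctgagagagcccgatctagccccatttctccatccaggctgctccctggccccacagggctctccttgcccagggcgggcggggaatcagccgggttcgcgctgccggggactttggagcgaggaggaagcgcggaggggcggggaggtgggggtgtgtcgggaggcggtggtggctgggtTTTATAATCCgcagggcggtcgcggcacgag
Mfrp: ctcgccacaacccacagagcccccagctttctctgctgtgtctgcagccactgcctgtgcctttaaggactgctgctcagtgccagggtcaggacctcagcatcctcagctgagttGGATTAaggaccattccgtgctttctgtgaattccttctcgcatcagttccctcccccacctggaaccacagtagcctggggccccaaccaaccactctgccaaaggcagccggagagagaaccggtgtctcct
Cldn2: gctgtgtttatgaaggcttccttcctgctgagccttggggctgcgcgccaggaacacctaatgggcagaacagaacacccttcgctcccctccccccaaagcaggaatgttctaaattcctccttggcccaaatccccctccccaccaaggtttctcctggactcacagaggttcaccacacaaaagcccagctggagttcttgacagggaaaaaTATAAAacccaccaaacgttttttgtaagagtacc
Kcnj13: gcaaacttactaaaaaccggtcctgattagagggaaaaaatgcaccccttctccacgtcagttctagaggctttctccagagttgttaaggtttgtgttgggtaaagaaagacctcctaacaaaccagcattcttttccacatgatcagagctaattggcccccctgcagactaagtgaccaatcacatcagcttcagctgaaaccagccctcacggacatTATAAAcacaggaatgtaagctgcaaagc

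The OTX core stood on either strand in 2 of the 24 member windows (8.33%), Ace and Mfrp, and in 5.61% of the windows of 14695 genes. The TATA box core TATAAA or its reverse complement TTTATA stood in 5 windows (20.8%), against 8.83% of all windows. Cldn2, Kcnj13 and Otx2 held TATAAA along the gene, and Ace and Slc4a5 held only TTTATA. In Cldn2 the match began 35 bases before the annotated start and in Kcnj13 29 bases before it. In Ace it also lay near the start, and in Otx2 and Slc4a5 it lay much farther upstream. Matches along the gene or near the start were not counted over all windows, so these shares do not compare them. The homeobox core TAATTA, searched because MSX1 and LMX1A are homeobox factors, stood in 1 window (4.17%), against 3.31% of all windows. A match is a description of the letters and not a shown binding site. The members lie on many chromosomes, and Clic6 and Kcne2 were the single pair within 1000000 bases of each other. Clic6 (chr16:92498147-92541241) and Kcne2 (chr16:92292389-92298133) are separated by 200014 bases.

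Secreted proteins formed the group with the most transcript. Ttr encodes transthyretin, the carrier of thyroxine and of retinol-binding protein in cerebrospinal fluid and the defining product of this epithelium. It was at 2.52, 2.53 and 2390 FPKM in the young control libraries 1, 2 and 3. In the middle-aged controls it was at 4.13, 28.3 and 1.08 FPKM, and in the quercetin libraries at 13.5, 930 and 12.3 FPKM. Young control 3 and the second quercetin library stood far above their own groups, and the remaining 7 libraries differed among themselves, from middle-aged control 3 at the bottom to middle-aged control 2 at the top. The group means of Ttr were 798 ± 1379 FPKM in young controls, 11.2 ± 14.9 FPKM in middle-aged controls and 319 ± 530 FPKM in quercetin-treated mice (SD, n = 3 each), so each SD exceeded its mean.

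Enpp2 encodes autotaxin, the secreted enzyme that makes lysophosphatidic acid. Its FPKM were 40.9, 44.7 and 351 in young controls, 52.6, 50.3 and 46.1 in middle-aged controls, and 48.4, 163 and 57.7 in quercetin-treated mice. Unlike most members it had a level well above 0 in every library, and the 2 high libraries stood above that base. Ecrg4 encodes augurin, the precursor of a secreted peptide, and was at 24.9 FPKM in young control 3 and 9.37 FPKM in middle-aged quercetin 2, against 0.58 to 1.5 FPKM elsewhere. Sostdc1, a secreted inhibitor of bone morphogenetic protein and Wnt signals, was at 9.19 and 4.62 FPKM in those libraries, against 0.83 to 1.21 FPKM in the other 7.

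Lbp, the lipopolysaccharide-binding protein, reached 7.43 and 3.12 FPKM, against 0.77 to 1.55 FPKM. F5, the precursor of coagulation factor V, reached 4.62 and 1.42 FPKM from 0.08 to 0.27 FPKM. The weakest of the 7 secreted proteins was Wfikkn2, an extracellular protein with protease inhibitor domains that binds growth and differentiation factors. Its FPKM were 0.50, 0.55 and 1.03 in young controls, 0.34, 0.66 and 0.26 in middle-aged controls, and 0.27, 0.94 and 0.33 in quercetin-treated mice. The same 2 libraries led, with middle-aged control 2 next.

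**Figure D1:**
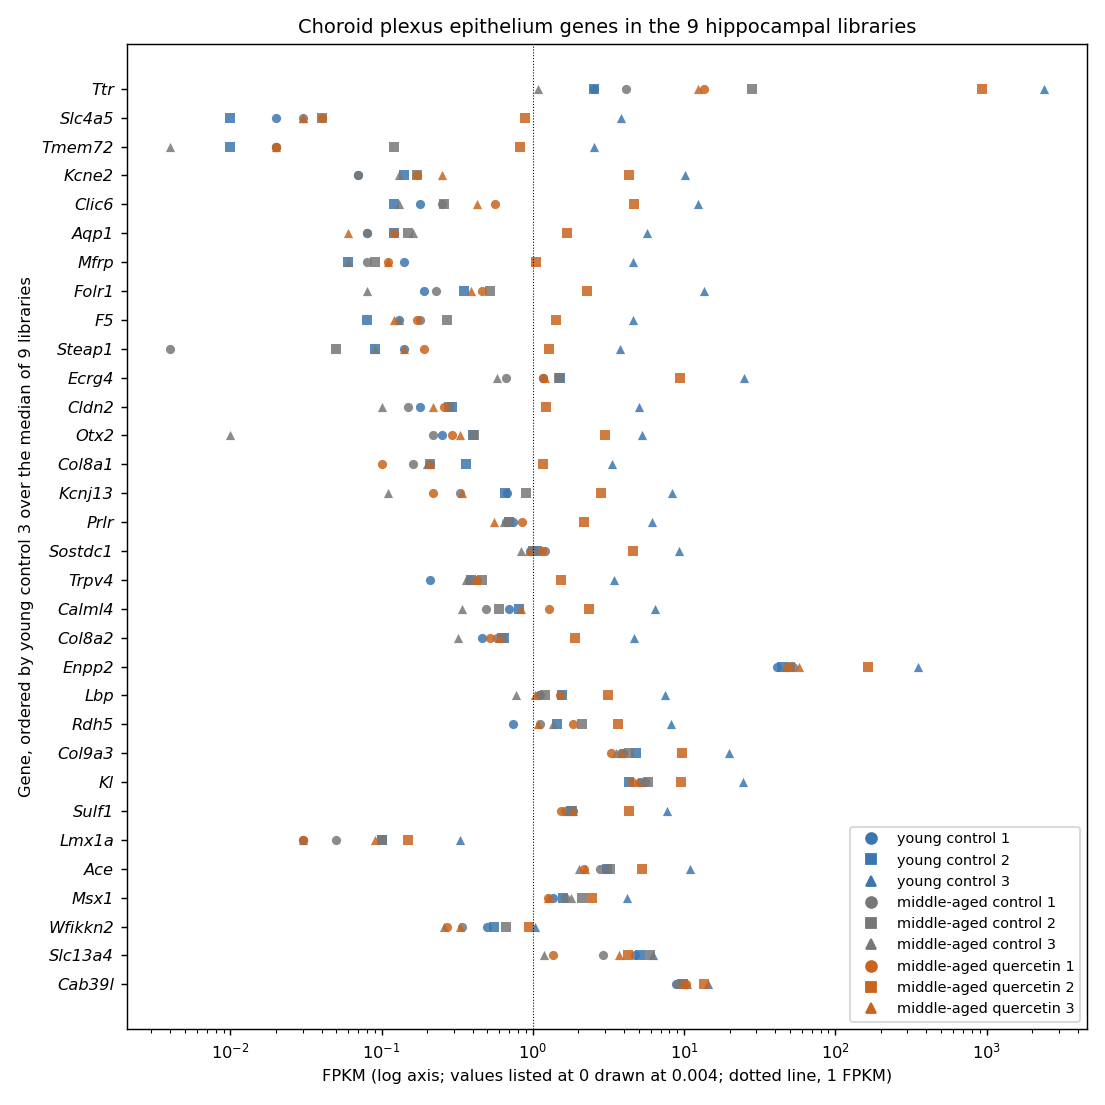
FPKM (log axis) of the 32 choroid plexus epithelium genes in each of the 9 libraries, 1 row of points per gene, coloured by group and shaped by replicate number, with values of 0 drawn at the left edge and a dotted line at 1 FPKM. Young control 3 is the rightmost point for all 32 genes and middle-aged quercetin 2 the second for 31.

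The 7 channels and transporters of the epithelium were mostly under 1 FPKM outside the 2 high libraries. Kcne2, the beta subunit of a potassium channel, was at 0.07, 0.14 and 10.2 FPKM in young controls, 0.07, 0.17 and 0.13 FPKM in middle-aged controls, and 0.17, 4.34 and 0.25 FPKM in quercetin-treated mice. Clic6, of the chloride intracellular channel family, was at 0.18, 0.12 and 12.3 FPKM in young controls, 0.25, 0.26 and 0.13 FPKM in middle-aged controls, and 0.56, 4.68 and 0.43 FPKM in quercetin-treated mice. These neighbours on chromosome 16 were both near 0 in 7 libraries. The quercetin libraries of Clic6 all lay above its middle-aged controls, and the young group spanned both. Aqp1, the water channel of the apical membrane, reached 5.67 and 1.69 FPKM in the 2 high libraries, against 0.06 to 0.16 FPKM.

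Slc4a5, a sodium bicarbonate cotransporter, had 127 times its median in young control 3, at 3.80 FPKM, and 0.88 FPKM in middle-aged quercetin 2, against 0.01 to 0.04 FPKM elsewhere. A median so close to the 2-decimal limit of the table makes that ratio coarse. Trpv4, a cation channel that responds to cell swelling, reached 3.45 and 1.53 FPKM, against 0.21 to 0.46 FPKM. Kcnj13, the inward rectifier Kir7.1, was at 0.67, 0.65 and 8.28 FPKM in young controls, 0.33, 0.90 and 0.11 FPKM in middle-aged controls, and 0.22, 2.84 and 0.34 FPKM in quercetin-treated mice. Outside the 2 high libraries middle-aged control 2 was the highest and middle-aged control 3 the lowest.

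Slc13a4, a sodium sulfate cotransporter, was the exception to the order of libraries. Its FPKM were 4.73, 5.08 and 6.27 in young controls, 2.93, 5.92 and 1.19 in middle-aged controls, and 1.36, 4.24 and 3.73 in quercetin-treated mice. Young control 3 was the highest by a small margin, middle-aged control 2 was second, and middle-aged quercetin 2 was the median of the 9 libraries. All 3 young libraries lay above all 3 quercetin libraries for this gene.

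Among receptors and other membrane proteins, the second high library was often far below the first. Folr1, the folate receptor that moves folate into cerebrospinal fluid, was at 0.19, 0.35 and 13.6 FPKM in young controls, 0.23, 0.52 and 0.08 FPKM in middle-aged controls, and 0.46, 2.29 and 0.39 FPKM in quercetin-treated mice. Kl encodes klotho, the co-receptor for fibroblast growth factor 23, and was at 5.07, 4.31 and 24.3 FPKM in young controls, 5.51, 5.79 and 5.23 FPKM in middle-aged controls, and 4.53, 9.57 and 4.95 FPKM in quercetin-treated mice. Kl thus kept a steady level in the other 7 libraries, between 4.31 and 5.79 FPKM, while Folr1 was under 1 FPKM in each of them. Prlr, the prolactin receptor, reached 6.12 and 2.19 FPKM, against 0.55 to 0.85 FPKM.

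Cldn2, the claudin that forms cation pores in leaky epithelia, reached 5.06 and 1.22 FPKM, against 0.10 to 0.29 FPKM. Mfrp, a frizzled-related membrane protein, reached 4.62 and 1.05 FPKM, against 0.06 to 0.14 FPKM, and Tmem72 reached 2.52 and 0.82 FPKM, against 0 to 0.12 FPKM. The annotated span of Mfrp overlaps C1qtnf5, which lay between 3.85 and 5.23 FPKM in 7 libraries and at 11.6 and 7.51 FPKM in young control 3 and middle-aged quercetin 2. How reads over both genes were shared was not tested. Kcnj13 overlaps Gigyf2 (14.9 to 17.0 FPKM) and Rdh5 overlaps Bloc1s1 (22.7 to 31.5 FPKM), and neither partner was highest in the 2 libraries. Tcfl5, which overlaps Col9a3, and Gm46900, which overlaps Steap1, were at most at 0.17 and 0.04 FPKM.

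In young control 3, the ratio to the gene's median over 9 libraries had a median of 6.42 for the 4 matrix genes. It was 5.66 for the 5 enzymes and adaptors, 3.67 for the transcription factors and 8.77 over all 32 genes. Col8a1 and Steap1 stood higher, at 15.8 and 26.9 times. Col9a3, a chain of type IX collagen, reached 19.9 and 9.63 FPKM, against 3.28 to 4.80 FPKM. Sulf1, which trims sulfate from heparan sulfate, reached 7.74 and 4.29 FPKM, against 1.53 to 1.85 FPKM. The type VIII collagen chains Col8a1 and Col8a2 reached 3.31 and 4.66 FPKM in young control 3 and 1.17 and 1.91 FPKM in middle-aged quercetin 2, and at most 0.36 and 0.64 FPKM elsewhere.

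Among the enzymes, Ace, the angiotensin-converting enzyme, reached 10.9 and 5.25 FPKM, against 2.02 to 3.22 FPKM. Rdh5, a retinol dehydrogenase, reached 8.20 and 3.65 FPKM, against 0.74 to 2.12 FPKM, and Steap1, of a family of metalloreductases, reached 3.76 and 1.28 FPKM, against 0 to 0.19 FPKM. Calml4, a calmodulin-like protein, was at 0.69, 0.81 and 6.41 FPKM in young controls, 0.49, 0.60 and 0.34 FPKM in middle-aged controls, and 1.27, 2.36 and 0.83 FPKM in quercetin-treated mice. Its middle-aged control libraries lay below every other library. Cab39l, a scaffold of the kinase LKB1, was at 14.5 and 13.5 FPKM in the 2 high libraries, against 8.80 to 10.5 FPKM, which in young control 3 was 1.47 times its median, the lowest such ratio of the 32 genes.

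The 3 transcription factors differed in level. Otx2, which the choroid plexus needs to form and to persist, was at 0.25, 0.40 and 5.24 FPKM in young controls, 0.22, 0.41 and 0.01 FPKM in middle-aged controls, and 0.29, 3.02 and 0.33 FPKM in quercetin-treated mice. Its 7 other libraries were all under 1 FPKM. Msx1 was at 4.18 and 2.47 FPKM, against 1.25 to 2.10 FPKM. Lmx1a, a factor of the roof plate from which the choroid plexus arises, stayed under 1 FPKM in all 9 libraries, with 0.33 FPKM in young control 3, 0.15 FPKM in middle-aged quercetin 2 and 0.03 to 0.10 FPKM elsewhere.

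At a level of 1 FPKM the libraries split plainly. In young control 3, 31 of the 32 genes reached it, and in middle-aged quercetin 2, 28 did, while in the other 7 libraries between 10 and 14 genes did. Of the 32, 18 were under 1 FPKM in all of those 7 libraries, 14 reached 1 FPKM in young control 3 and middle-aged quercetin 2 alone, and 9 reached it in all 9 libraries. The 32 genes made up 0.896% of all FPKM in young control 3 and 0.358% in the second quercetin library, against 0.0242% to 0.0367% in the other libraries. Ttr alone made up 0.718% and 0.278%. Without Ttr the shares were 0.178% and 0.0803%, against 0.0237% to 0.0283%.

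The order of libraries was also counted over all genes, to set the members beside the rest of the table. Of the 13510 genes that reached 1 FPKM in any library, 399 had young control 3 highest and middle-aged quercetin 2 second, which is 2.95%, and 30 of the 31 members in that set were among them. In 38 of the 13510 genes (0.281%), both libraries were at least 2 times the highest of the other 7, and 23 of these 38 were members. Nothing is read from these shares, since the members were chosen with these values known. Of 10 other genes with the profile nearest to the median profile of the members, Prr32 was the closest, at 2.86 FPKM in young control 3, 0.78 FPKM in middle-aged quercetin 2 and at most 0.21 FPKM elsewhere. The likeness was the root mean square distance of centred log2(FPKM + 1) over 9 libraries, which was 0.113 for Prr32 and had a median of 0.209 over 31 members and 0.759 over all 13510 genes. The other 9 genes were Wfdc2, Krt18, Defb11, Wdr86, Drc7, A2m, Slc2a12, Abca4 and Cldn1, at distances from 0.118 to 0.348.

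The members did not rise by the same proportion in the 2 high libraries. For each gene the rise is the FPKM in a library minus the gene's median over the 9 libraries, and the rise in middle-aged quercetin 2 was divided by that in young control 3. The ratio had a median of 0.317 over the 32 genes (SD over genes 0.157). It lay between 0.3 and 0.5 for 16 genes, under 0.3 for 13 and over 0.5 for 3. Ttr (0.386), Enpp2 (0.376) and Kcne2 (0.417) lay near one another although their levels differ by orders of magnitude. The 6 receptors and membrane proteins had the lowest median of the 6 role groups, 0.218, with Folr1 at 0.144, Cldn2 at 0.200, Mfrp at 0.208 and Kl at 0.227. The 7 secreted proteins had a median of 0.376. The highest ratios were those of Wfikkn2 (0.830), Cab39l (0.787) and Otx2 (0.548), and the ratio of Slc13a4 was 0 because middle-aged quercetin 2 is its median. With 1 library of each kind, these ratios have no replicate check.

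**Figure D2:**
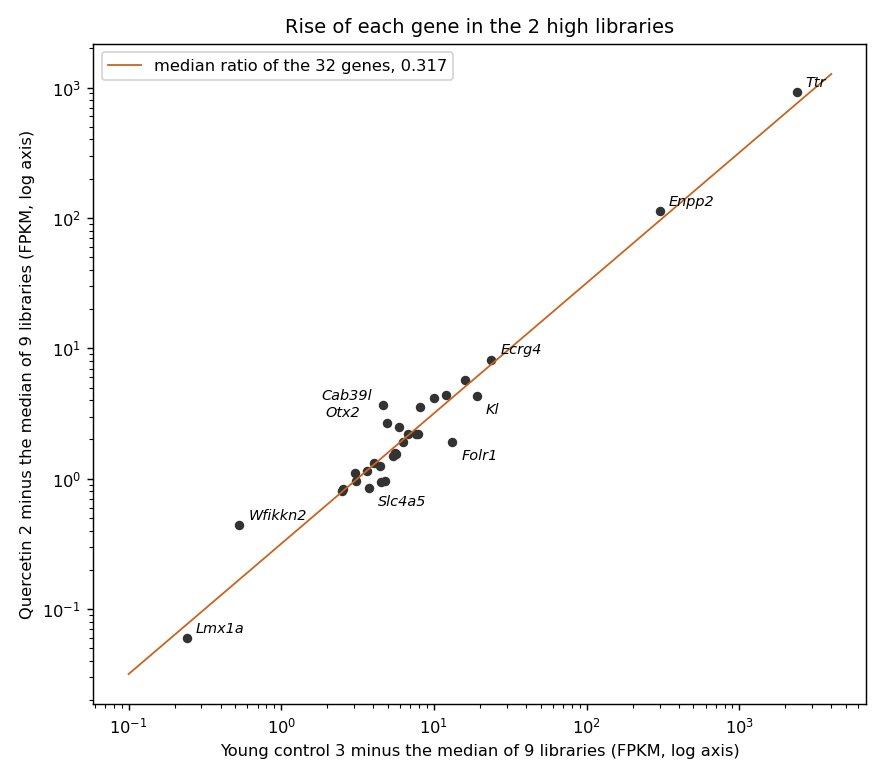
Rise over the 9-library median in middle-aged quercetin 2 (vertical) against the rise in young control 3 (horizontal), in FPKM on log axes, 1 point per gene, with a line at the median ratio of 0.317. Slc13a4 has a rise of 0 in middle-aged quercetin 2 and cannot be drawn; Folr1 and Kl lie below the line and Cab39l, Otx2 and Wfikkn2 above it.

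The remaining 7 libraries were not equal either. Middle-aged control 2 was the highest of the 7 for 14 of the 32 genes, against 17.9% of all genes, and middle-aged control 3 the lowest for 14, against 13.6% of all genes. The order of these 7 libraries was compared, over their 21 pairs, with the order of a meningeal score, the mean centred log2(FPKM + 1) of 11 fibroblast genes of the brain coverings. This measure was chosen after the values had been seen. Kcnj13 had the order of the meningeal score in 21 of 21 pairs and Slc13a4 in 20, which 0.370% of the 13510 genes did in at least 20 pairs. Both stood at the top of the 32 genes, so nothing is read from that share. Kcnj13 lay between 0.11 and 0.90 FPKM in these libraries, where the order is coarse. Wfikkn2 and Ace had it in 19 pairs and Col9a3 in 18. The median over the 32 genes was 12 pairs, beside 11 over all genes.

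Against the order of Ttr in the same 7 libraries, Folr1 stood alike in 20 pairs, which 0.104% of the 13510 genes did in at least 20. Trpv4 followed with 19 pairs and Clic6 with 17. Folr1 had the most pairs of the 31 members compared, so nothing is read from the share over all genes. In these libraries Folr1 lay between 0.08 and 0.52 FPKM, Trpv4 between 0.21 and 0.46 and Clic6 between 0.12 and 0.56. At such low levels the order is coarse. The median of the other 31 members was 14 pairs, and 11 over all genes. In Folr1 as in Ttr, middle-aged control 3 was lowest and middle-aged control 2 highest of the 7.

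**Figure D3:**
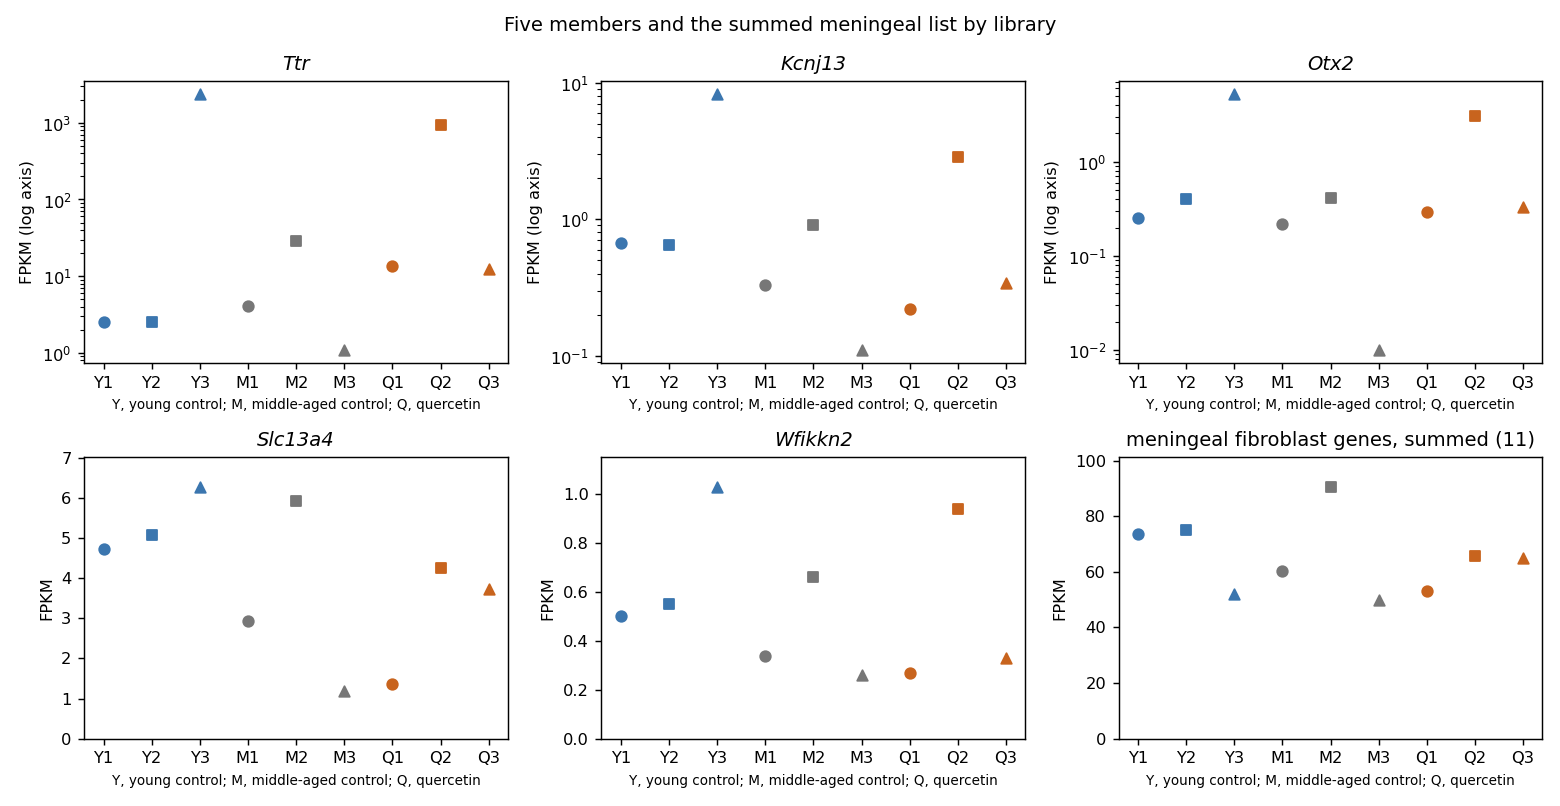
FPKM of Ttr, Kcnj13 and Otx2 (log axes) and of Slc13a4, Wfikkn2 and the sum of 11 meningeal fibroblast genes (linear axes from 0), 1 point per library, coloured by group and shaped by replicate number. Young control 3 leads each of the 5 genes, the meningeal sum is highest in middle-aged control 2, and Slc13a4 is at 5.92 FPKM in that library.

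Markers of other cells were read beside these levels. Over 4 further lists of choroid plexus genes, the mean centred log2(FPKM + 1) was 0.30 to 0.73 in young control 3 and 0.08 to 0.26 in the second quercetin library, against 1.87 and 0.87 for the 32 members. Epithelial genes came nearest: all 9 of a list of keratins, junction genes and Rbm47 were higher in young control 3 than in the other 7 libraries, among them Krt18 at 3.13 FPKM against at most 0.28 FPKM, Krt8 at 1.54 FPKM against at most 0.35 FPKM, Cldn1 at 3.51 FPKM against at most 1.04 FPKM, and Vat1l at 14.1 FPKM against at most 7.25 FPKM. The keratins were close to 0 outside the 2 libraries. Of 10 genes of ion and acid-base transport, 6 were higher in young control 3 than in the other 7, with Slc4a2, a chloride bicarbonate exchanger, at 15.4 FPKM against 5.98 to 6.93 FPKM and the cation channel Trpm3 at 21.2 FPKM against 9.21 to 11.1 FPKM. The carbonic anhydrases Car12 and Car14 were at 18.1 and 8.03 FPKM there, against at most 13.4 and 6.34 FPKM.

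Of 17 solute carriers and export pumps, 11 were higher in young control 3 than in the other 7 libraries. The sugar carrier Slc2a12 was at 5.40 FPKM and the copper carrier Slc31a1 at 10.3 FPKM, against at most 1.42 and 5.95 FPKM. The monocarboxylate carrier Slc16a8 was at 1.84 FPKM and the monoamine carrier Slc29a4 at 14.6 FPKM, against at most 0.41 and 11.2 FPKM. Middle-aged quercetin 2 came second for Slc2a12, Slc31a1 and Slc16a8 and not for Slc29a4. Of 12 secreted factors and receptors, 6 were higher in young control 3 than in the other 7 libraries. Igfbp2, a binding protein of insulin-like growth factors, was at 44.6 FPKM in young control 3 and the growth factor Igf2 at 35.9 FPKM. Middle-aged control 2 was the highest of the other 7 for both, at 26.5 and 24.8 FPKM. In young control 3, Spint2, a protease inhibitor, was at 17.1 FPKM against at most 9.79 FPKM. The bone morphogenetic protein Bmp6 was at 4.94 FPKM there, against at most 4.68 FPKM.

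Ependymal cells, the ciliated lining of the ventricles, also gave more transcript in these 2 libraries. Of 10 ependymal genes, 7 were higher in both than in the other 7 libraries. Their summed level was 10.96, 17.6 and 28.4 FPKM in young controls, 17.1, 14.9 and 10.8 FPKM in middle-aged controls, and 20.4, 31.7 and 19.6 FPKM in quercetin-treated mice. In this sum all 3 quercetin libraries lay above all 3 middle-aged controls, an order that not every gene of the list had. Among single genes, 8.94% of the 13510 had it. The sum was also higher in middle-aged quercetin 2 than in young control 3, the reverse of the choroid plexus genes. Ccdc153 was at 7.39 FPKM in middle-aged quercetin 2, 4.45 FPKM in young control 3 and 1.86 to 3.93 FPKM elsewhere, and Foxj1, the master regulator of motile cilia, at 4.64, 4.30 and 1.85 to 3.60 FPKM. No ependymal marker was at 0 in all libraries. The part of ventricular tissue taken with the hippocampus in the choroid plexus levels was not tested.

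The meningeal genes did not follow this pattern. Their summed level was 52.1 to 75.1 FPKM in young controls, 50.0 to 90.5 FPKM in middle-aged controls and 52.9 to 65.6 FPKM in quercetin-treated mice. None of the 11 was higher in young control 3 than in all the other 7 libraries, and the same was true of 7 border macrophage genes and 6 endothelial genes. Markers of hippocampal neurons were present in all 9 libraries. Of 9 genes of hippocampal neurons, Neurod6 lay between 81.9 and 102 FPKM in the 9 libraries. Wfs1 was at 37.0 to 39.3 FPKM in young controls and at 28.3 to 32.8 FPKM in middle-aged controls and quercetin-treated mice. In middle-aged control against young, 3 of the 9 had an unadjusted p under 0.05 (limma), where 12.2% of all tested genes had, and 0 were called after adjustment. As a list, the mean centred log2(FPKM + 1) lay between -0.07 and 0.07. Of 8 thalamic genes, 1 was higher in both high libraries than in the other 7, Prkcd at 14.0 and 13.4 FPKM against at most 8.47 FPKM. Red blood cell genes were lowest in young control 1 and middle-aged quercetin 2, at -1.56 and -1.07 on that scale.

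**Figure D4:**
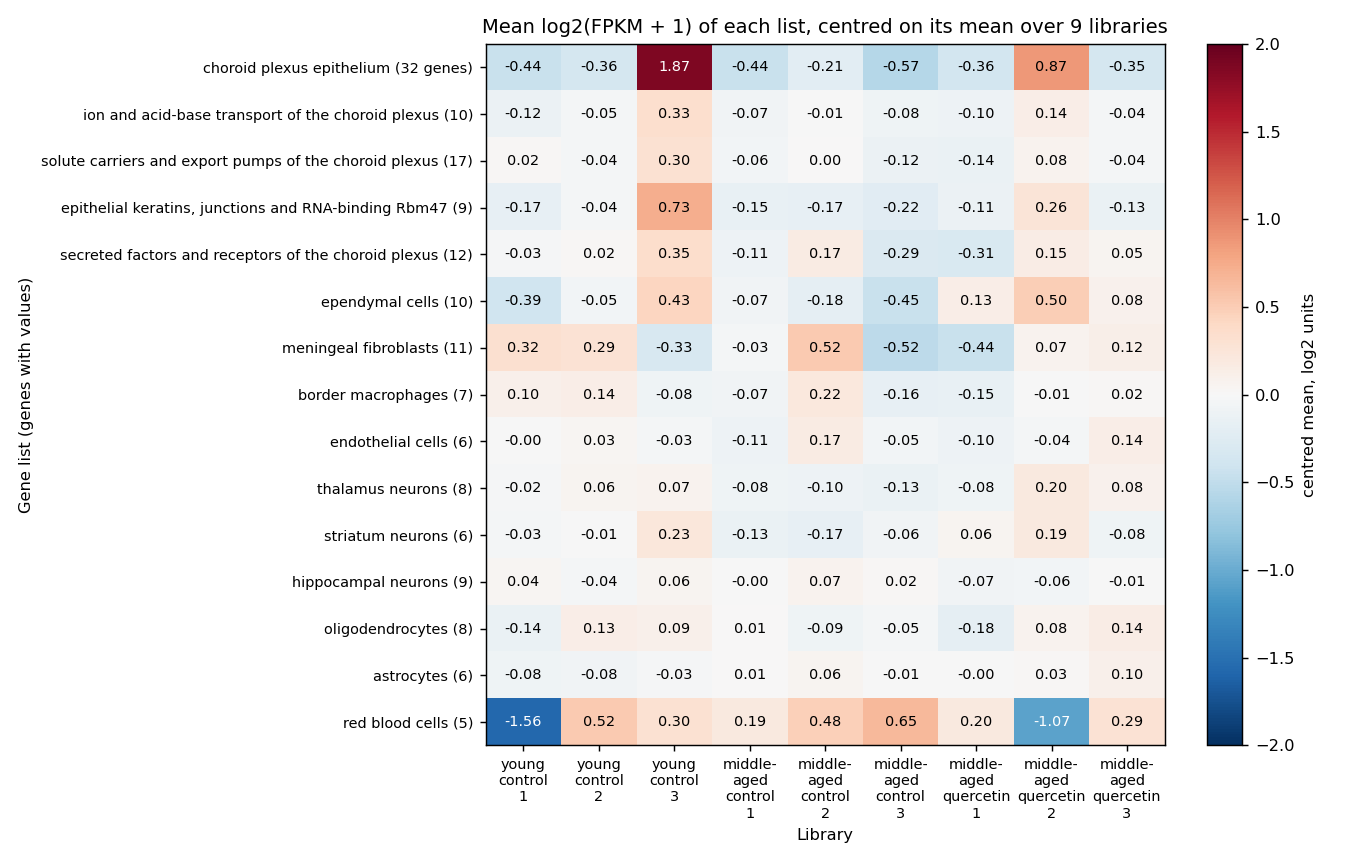
Mean log2(FPKM + 1) of each gene list in each library, centred on the list's mean over the 9 libraries, with the number of genes in brackets (colour scale in log2 units). The 32 members stand at 1.87 in young control 3 and 0.87 in quercetin library 2, and the 4 further choroid plexus lists and the ependymal, thalamus, striatum and oligodendrocyte lists are also above 0 in both.

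The study compared age and treatment, and the same 3 contrasts were fitted across the whole table with limma on log2(FPKM + 1), a scale that understates changes of low genes, with Benjamini-Hochberg adjustment over the 13062 genes that reached 1 FPKM in 3 or more libraries. Of the 32 members, 14 passed that filter and 18 did not, and Calml4 passed through exactly 3 libraries. In middle-aged control against young, 0 of the 14 tested members were called at an adjusted p of 0.05, where 0.230% of all tested genes were, and 0 had an unadjusted p under 0.05, where 12.2% of all tested genes had. In quercetin against middle-aged control, 0 were called, against 0.168% of all genes, and 0 at the unadjusted threshold, against 11.7%. In quercetin against young, 0 were called, against 0.0766%, and 0 at the unadjusted threshold, against 6.30%. Each pair of contrasts shares the libraries of 1 group.

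The direction of the group differences followed where the 2 high libraries sat. In middle-aged control against young, all 32 genes had a difference below 0, with a median of -0.76 in log2 units. In quercetin against middle-aged control, 30 were above 0, with a median of 0.33, and in quercetin against young, 30 were below 0, with a median of -0.31. The medians over all tested genes were -0.005, 0.006 and 0.003. Ttr differed by -2.19, 3.06 and 0.87 in these contrasts, with an SE of 2.37 for each. Enpp2 differed by -0.79, 0.63 and -0.17 with an SE of 0.70. The smallest adjusted p of a member was 0.445 for Calml4 in middle-aged control against young (limma).

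With young control 3 and quercetin library 2 left out, the medians of the 32 genes were -0.02, 0.03 and 0.01 in log2 units, and 13, 18 and 18 genes lay above 0. No member was called in that fit either, where 0.0695%, 0.00772% and 0.0309% of all tested genes were called in the 3 contrasts, and 10.0%, 8.81% and 5.05% had an unadjusted p under 0.05. Of the 13 members tested there, 2 had such a p in the first contrast (Kl and Enpp2), 1 in quercetin against middle-aged control (Msx1) and 2 in quercetin against young (Ace and Enpp2). Ttr then differed by 0.95, 1.04 and 1.98. Leaving out young control 3 alone turned the median of quercetin against young to 0.31.

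Few members had groups that did not overlap. Every quercetin library lay above every middle-aged control library for 4 of the 32, Clic6, Mfrp, Steap1 and Calml4, and 8.94% of the 13510 genes had that order. Clic6, Mfrp and Steap1 did not pass the filter. Their lowest quercetin levels were 0.43, 0.11 and 0.14 FPKM, and their highest middle-aged control levels 0.26, 0.09 and 0.09 FPKM. At such low levels the order of libraries is coarse. Every young library lay above every middle-aged control for Calml4 alone, beside 9.33% of all genes, and above every quercetin library for Slc13a4 alone, beside 5.81%. Of the 48 genes in the 4 further choroid plexus lists, 38 passed the filter, and 1 was called: Vegfa, the vascular growth factor, was higher in quercetin against middle-aged control by 0.40 log2 units (SE 0.06, limma adjusted p = 0.029). This call was kept in 8 of 18 alternatives and lost in 10, with adjusted p from 0.018 to 0.206, among them each fit without 1 of the 3 middle-aged controls (0.079 to 0.095) and those without quercetin library 2 (0.172) or 3 (0.095). Its levels were 27.4, 30.6 and 30.9 FPKM in quercetin-treated mice and 20.7 to 23.2 FPKM in middle-aged controls. In young controls they were 22.05, 23.7 and 22.6 FPKM, so young control 3 was not raised as it was for the members. None of the 4 lists had a called gene in the other 2 contrasts.

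**Figure D5:**
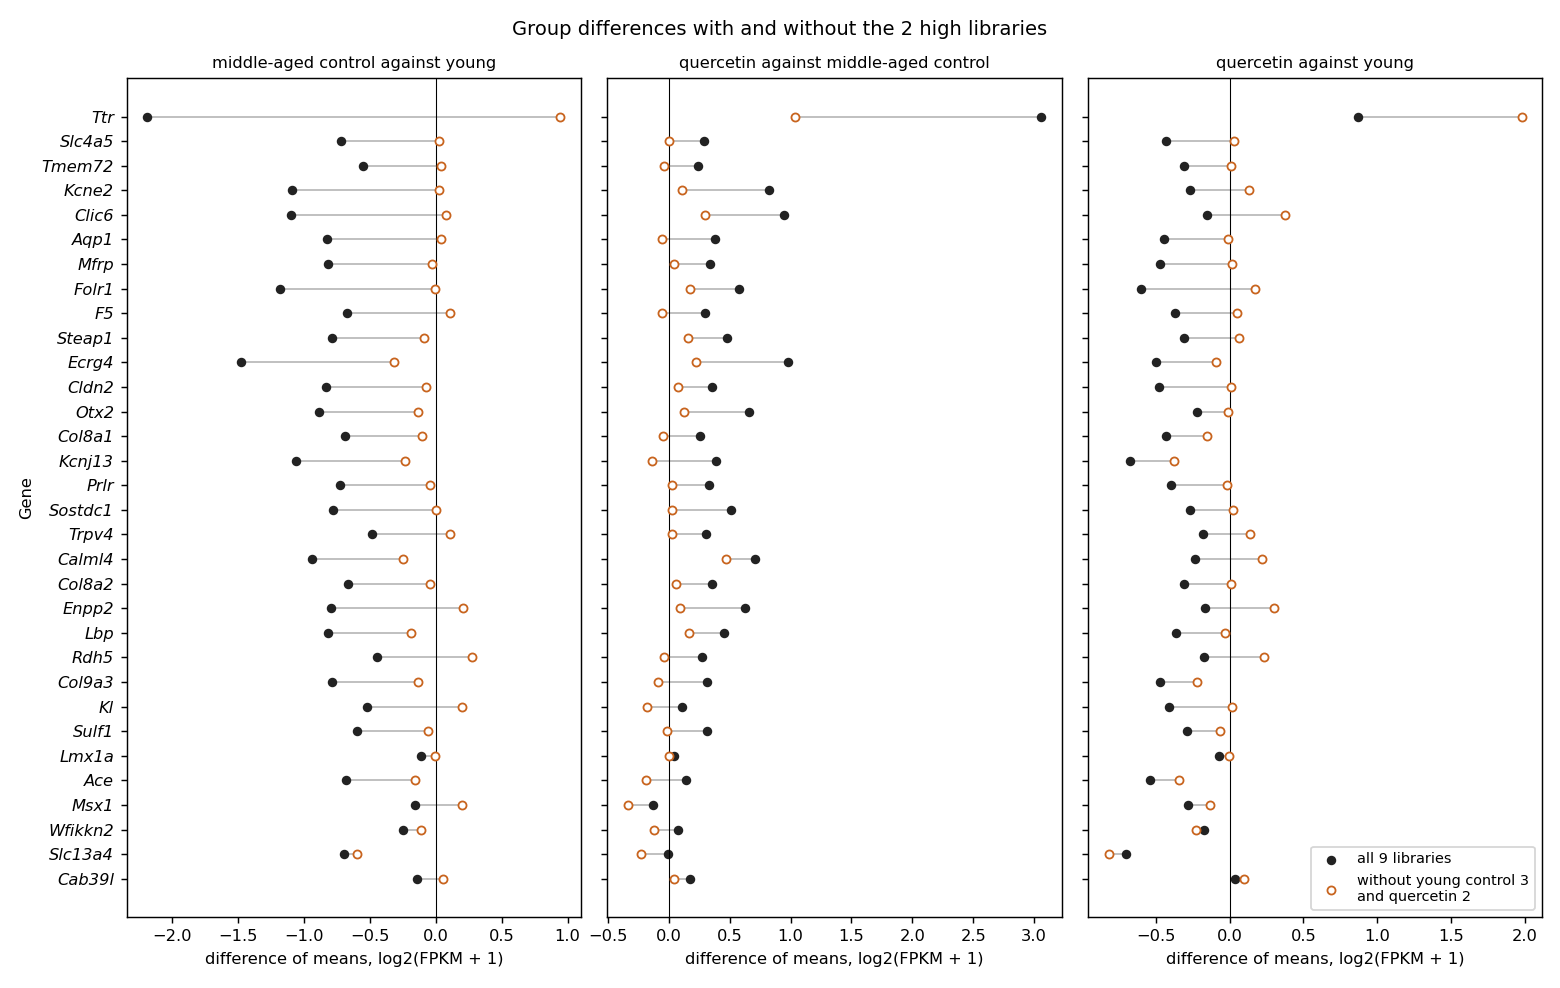
Fitted difference of each of the 32 genes in log2(FPKM + 1) units for the 3 contrasts, with all 9 libraries (filled) and with the 2 high libraries left out (open). With all libraries the medians are -0.76, 0.33 and -0.31, and without the 2 libraries -0.02, 0.03 and 0.01.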

How the data were processed

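RNA-seq of the hippocampus was read from 1 table of 9 libraries, 3 per group, grouped by their labels. The deposited values were FPKM, rounded by the authors to 2 decimals, and 3375 of the 22173 listed genes had none. Reads were mapped with HISAT2 (2.0.4) and Bowtie2 (2.2.5) and quantified with RESM by the paper's methods, but the submitters' processing notes list Cufflinks, TopHat2 and the build GRCm38, so the tool behind the FPKM is unknown here. FPKM holds no read counts, so no count model was fitted. Median-of-ratios factors lay between 0.996 and 1.017, and steps of low genes, taken to be 1 read, gave relative depths between 0.957 and 1. Only values close to each gene's lowest were kept for these steps, so a much lower depth of a library could not show in them.

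The members, lists and tests were chosen with earlier results of these data known. Named genes are the 32 members, the 10 other genes with the nearest profile, and, of each other list, genes among the 4 with the highest ratio of (highest FPKM + 1) to (median + 1) and any called gene. Foxj1, 5 genes of the closing observations and 5 genes that overlap members on the genome fall outside this rule and were named after their values were seen. Genes that reached 1 FPKM in 3 or more libraries were fitted on the log2(FPKM + 1) scale with limma 3.58.1 in R 4.3.3 (mean-variance trend, all 9 libraries). On simulated data for middle-aged control against young (5 runs, 13062 genes), 84.4% of log2 changes of 0.5 and 97.0% of log2 changes of 1 were called, and 5.06% of calls were false. These changes were planted in genes drawn at random from all tested genes, each with its own spread. The rates describe tested genes as a whole and not the members, whose SE ran from 0.16 for Cab39l to 2.37 for Ttr. The lack of calls among members therefore does not exclude changes of this size. Python 3.11.15, pandas 2.3.3, numpy 2.4.6 and matplotlib 3.10.9 were used for counts and plots. Alternatives were a pseudocount of 0.1, a minimum mean of 5 FPKM, no minimum, rescalings, fits of 6 libraries, no trend, a replicate block, libraries left out, and the lowest library as the baseline of rises.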

Additional observations from a re-analysis of the deposited data

How the results depend on the processing

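In every alternative run, limma called 0 members in all 3 contrasts, and the median differences moved by less than the SD between libraries of a group, an SD that the 2 high libraries widen. A pseudocount of 0.1 took the medians to -1.11, 0.70 and -0.41, and the ratio of rises had a median between 0.308 and 0.36 under other scalings and baselines. Leaving out 1 library at a time, the median over the 32 genes ranged from -1.11 to -0.02 in middle-aged control against young, from 0.03 to 0.50 in quercetin against middle-aged control, and from -0.73 to 0.31 in quercetin against young; without young control 3 the first was -0.02 and the last 0.31, and without middle-aged quercetin 2 the middle one was 0.03 and the last -0.73. Of the differences of single members under the alternatives, 1716 stayed within the SD between libraries and 12 did not, all with a pseudocount of 0.1. The 2 high libraries widen this SD too, so the count does not show stability. Ttr in middle-aged control against young went from -2.19 to 0.95 without young control 3 and still counted as within it. With the replicate number as a block, 0 members were called. Deviations of libraries with the same number correlated between -0.198 and 0.118, so the numbers were not taken to pair the samples. The alternatives for Vegfa were added after seeing the data. Levels under about 1 FPKM, where 18 members stayed outside 2 libraries, rest on few reads, and the depth is unknown.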

Other observations

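Of the 15 genes outside the 32 that stood, in both young control 3 and quercetin library 2, at 2 or more times that of the other 7 libraries, 5 were higher in middle-aged quercetin 2, while this held for 0 of the 23 members with the same property. They were singled out after their values were seen. Zic1, a zinc finger transcription factor, was at 8.35 FPKM in young control 3, 9.67 FPKM in middle-aged quercetin 2 and 1.22 to 3.45 FPKM elsewhere. Six3, a homeobox factor of the forebrain, was at 0.72 and 1.02 FPKM, against at most 0.20 FPKM. Col6a3, a collagen VI chain, was at 2.31 and 2.44 FPKM, against at most 0.95 FPKM. Lbhd2 was at 3.45 and 3.86 FPKM and Sln, which encodes sarcolipin, at 1.84 and 2.00 FPKM, against at most 0.79 and 0.58 FPKM.

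Among ependymal genes, 5 of 8 tested had an unadjusted p under 0.05 in quercetin against middle-aged control (limma), where 11.7% of all tested genes had, and 0 passed after adjustment. Their median difference was 0.55 in log2(FPKM + 1) units. Dynlrb2, a dynein light chain, was at 1.64, 1.90 and 1.80 FPKM in quercetin-treated mice and 0.59, 0.73 and 0.47 FPKM in middle-aged controls. Groups in that order without overlap were found for 8.94% of the 13510 genes. In young controls Dynlrb2 was at 0.70, 0.82 and 2.91 FPKM, the last above all the other libraries.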
